A study of Mus musculus with 2 samples.

Results

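The genes described here encode the enzymes that build, sulfate and trim glycosaminoglycans. They were taken by symbol, as every member of the Xylt, Ext, Extl, Ndst, Glce, Hs2st, Hs3st, Hs6st, Sulf, Csgalnact, Chsy, Chpf and Chst families. That rule was chosen with earlier results of these data known. The rule found 45 genes among the 25114 gene symbols listed for both libraries. Their levels were measured by single-cell RNA sequencing of mouse liver cells, as counts per gene and cell. Of the 45 genes, 35 were measured in at least 1 cell type, that is, their counts in the type came to 20 or more over the pair of libraries and their level to 10 CPM or more in 1 of them. CPM is a gene's count scaled by the summed counts of the type. The other 10, Xylt2, Extl1, Ndst3, Ndst4, Hs3st2, Hs3st4, Hs3st5, Hs3st6, Chst5 and Chst9, were below that level in every type.

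There was 1 library per genotype, each from 1 male mouse, and the mice were littermates. The control genotype is Ctgffl/fl, in which both alleles of Ctgf (listed in the files as Ccn2, the gene of connective tissue growth factor) carry loxP sites. The other genotype is Cdh5-CreERT2; Ctgffl/fl, which adds a tamoxifen-dependent Cre recombinase under the promoter of Cdh5, an endothelial cadherin gene. Both mice had partial inferior vena cava ligation (pIVCL), a surgical model of liver congestion, and both samples carry the same batch label. The livers were digested with pronase and collagenase, and hepatocytes, dead cells and erythrocytes were depleted, so the few hepatocytes left are a remnant. The sample titles give the opposite assignment to the genotype field and the library names. The genotype field was used, and the libraries are called the library labelled control and the library labelled knockout. With 1 library each there is no replicate check and no test. The difference between genotypes cannot be told apart from a difference between 2 mice or 2 preparations. The 95% intervals are exact Poisson intervals of a level, or exact conditional intervals of a ratio, and cover counting error only.

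Glycosaminoglycans are long sugar chains attached to the core proteins of proteoglycans on the cell surface and in the matrix. Synthesis begins with a xylose placed on a serine of the core protein, followed by a short linker, and the next sugar decides between heparan sulfate and chondroitin or dermatan sulfate. Sulfotransferases of the Golgi then place sulfate at defined positions, which set the binding of growth factors, chemokines, antithrombin and lipoproteins. In the liver, heparan sulfate of the sinusoidal wall takes part in lipoprotein clearance, and chondroitin and dermatan sulfate are components of scar matrix.

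The libraries listed 10000 barcodes each and held 106208933 counts under the control label and 129802501 under the knockout label, and they shared 2 barcodes. After filters and removal of likely doublets, 7546 and 8361 cells remained, with medians of 7790 and 9145 counts per cell. Cells were assigned to a type by its marker genes, and 18.9% and 12.5% of cells passed no gate. A type is thus a range of a marker score, and 315 and 197 gated cells lay close to its limit. No gate used any of the 45 enzyme genes. In 9 types both libraries had at least 50 cells, and these were compared. In endothelial cells Ccn2 stood at 1003 CPM in the library labelled control and 5.05 CPM in the library labelled knockout, and the log2 ratio was -7.63 (-7.87 to -7.40). In mesenchymal cells it stood at 1331 and 1196 CPM. Other types were also at least 1.5-fold lower under the knockout label. Kupffer cells had 83.6 and 29.1 CPM, monocyte-derived cells 12.2 and 1.58 CPM, T cells 14.7 and 3.87 CPM and hepatocytes 19.4 and 0.289 CPM. Mesothelial cells had 524 and 4.12 CPM, and the cause of these differences outside endothelial cells was not tested. The level of Ccn2 in the 2 libraries therefore followed the genotype field and went against the titles. Ratios below are the library labelled knockout over the library labelled control, on the log2 scale, and a gene is called lower or higher when the 2 libraries were at least 1.5-fold apart. That is a rule of size. Levels are CPM of the counts summed over the cells of a type, not corrected for gene length, so they are compared for 1 gene between types or libraries and not between genes. A lower CPM cannot separate fewer cells with the transcript from less transcript in each.

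The type of highest level was read for each gene over the 13 types with levels. Of the 35 measured genes, 28 had their highest level in the same type in both libraries. This is a ranking, and the lead could be small. Extl3 under the control label stood at 59.8 CPM in mesenchymal and 58.6 CPM in Kupffer cells. Mesenchymal cells, the stellate cells, fibroblasts and smooth muscle of the liver, were that type for 9 of them. Endothelial cells were that type for Csgalnact1, Chst7, Chst14 and Chst2. Natural killer or type 1 innate lymphoid (NK or ILC1) cells were that type for Sulf2, Chsy1 and Chst11. Mesothelial cells were that type for Hs2st1, Sulf1 and Chst4, plasmacytoid dendritic cells for Glce and Hs3st1, and neutrophils for Chst12 and Chst13. Single genes peaked in Kupffer cells (Hs6st1), monocyte-derived cells (Csgalnact2), T cells (Chst10), B cells (Chst3) and plasma cells (Chst1). Some of these gates were small, with 27 and 56 plasmacytoid dendritic cells, 35 and 215 neutrophils and 21 and 31 plasma cells. Chst13 had 2 and 46 counts in neutrophils. No gene was measured in every type.

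**Figure D1:**
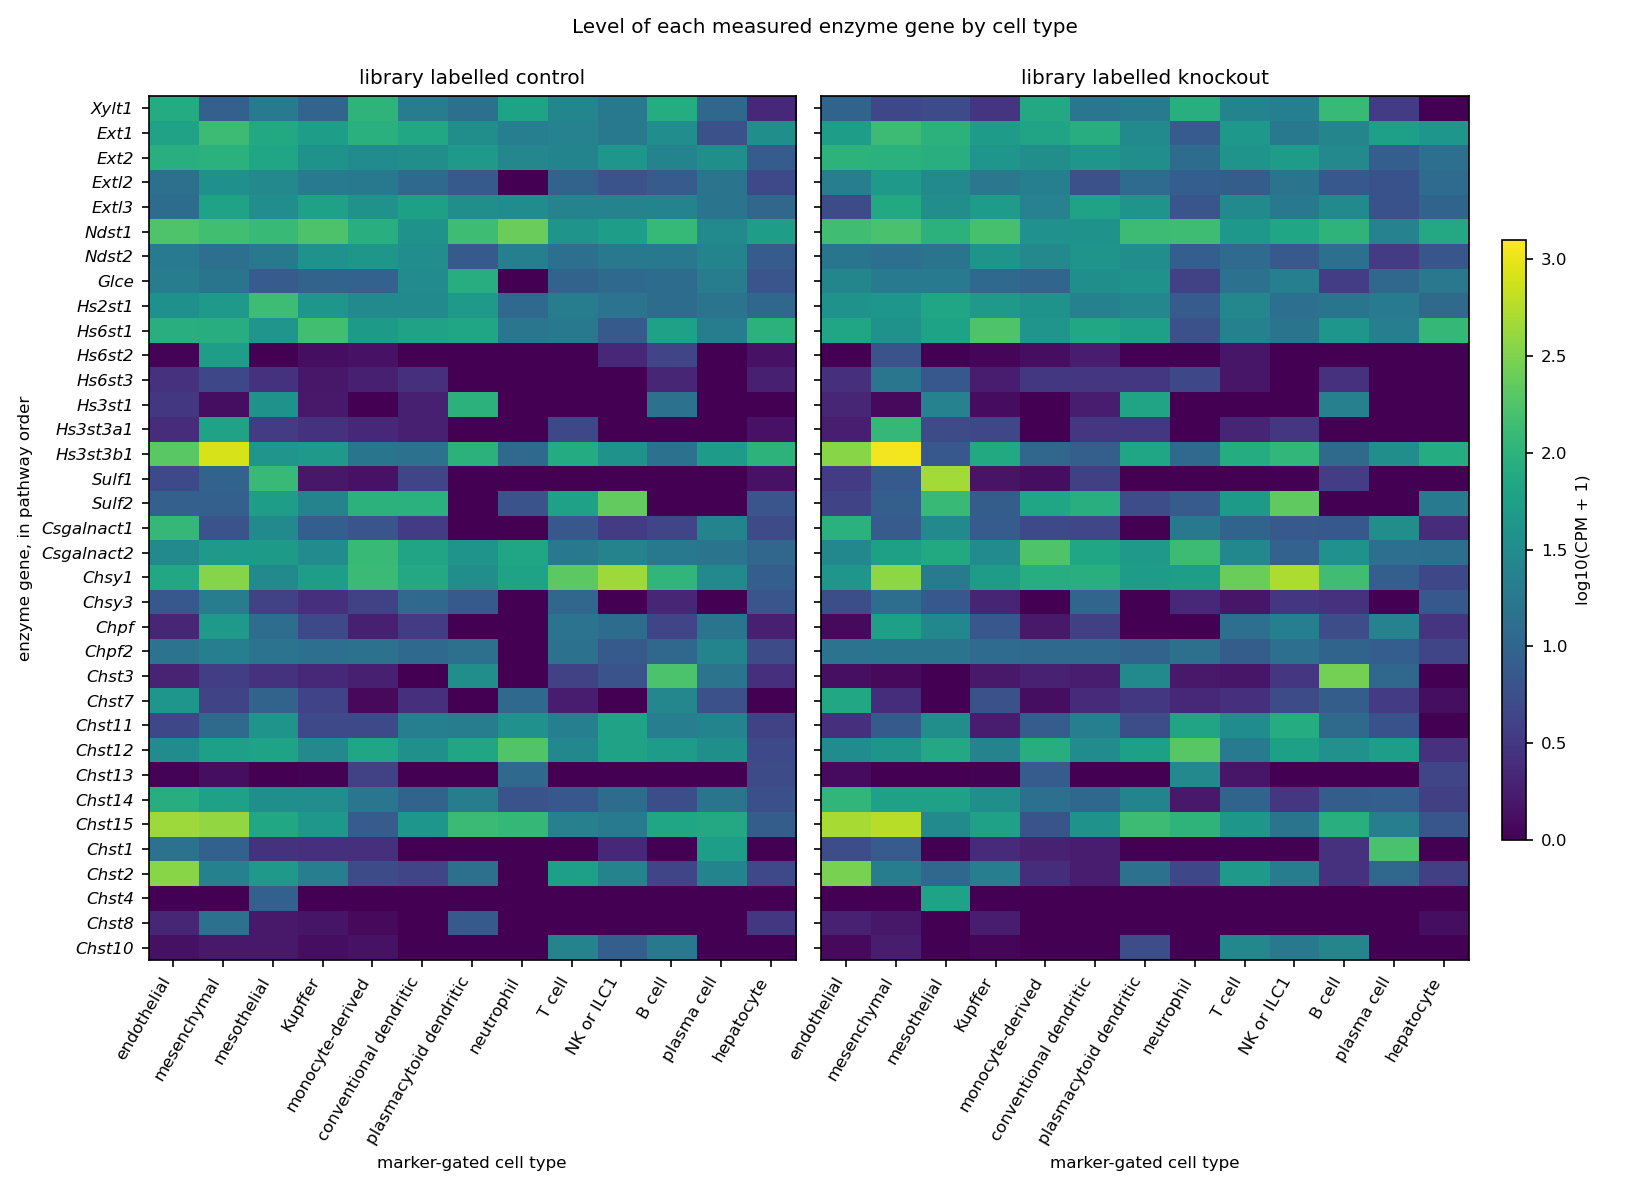
Levels of the measured enzyme genes in the marker-gated cell types, as a colour scale of log10(CPM + 1) of the summed counts, with the library labelled control and the library labelled knockout side by side. Hs3st3b1 is highest in mesenchymal cells at 806 and 1109 CPM, and Sulf2 in NK or ILC1 cells at 227 and 219 CPM.

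Chain initiation was uneven across types. Xylt1, the xylosyltransferase that adds the first sugar, stood at 103 CPM (94.1 to 113) and 73.5 CPM (64.4 to 83.6) in monocyte-derived cells, the control label first here and throughout. B cells had 81.9 and 126 CPM, endothelial cells 79.3 and 9.03 CPM, and neutrophils 62.4 and 87.0 CPM. Kupffer cells (9.24 and 1.93 CPM) and mesenchymal cells (7.82 and 3.71 CPM) had little. In the library labelled control the endothelial level thus lay near that of B cells, and in the library labelled knockout it lay below the levels in T cells (24.3 CPM) and conventional dendritic cells (15.6 CPM).

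The heparan sulfate sulfotransferases differed in how widely they were measured, with Hs3st3b1 in 12 types and Hs6st1 in 10. Hs3st3b1, a 3-O-sulfotransferase whose product is known as the heparan sulfate bound by herpes simplex glycoprotein D, stood at 806 CPM (784 to 828) and 1109 CPM (1080 to 1138) in mesenchymal cells. Endothelial cells followed with 199 and 352 CPM, and hepatocytes had 99.4 and 81.9 CPM. Plasmacytoid dendritic cells had 97.7 and 65.9 CPM of Hs3st3b1 and NK or ILC1 cells 37.4 and 113 CPM. Its levels in monocyte-derived cells (14.97 and 9.47 CPM), conventional dendritic cells (13.8 and 7.78 CPM) and B cells (13.7 and 10.7 CPM) were the lowest of the types compared. Its paralog Hs3st3a1 encodes a nearly identical catalytic domain, so the division of reads between the pair is uncertain. Hs6st2 and Hs6st3, 6-O-sulfotransferases, and Hs3st3a1 were measured in mesenchymal cells and in no other type, while their relative Hs6st1 was highest in Kupffer cells at 142 and 177 CPM.

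The extracellular sulfatases, which remove 6-O-sulfate from finished chains, had separate sources. Sulf2 stood at 227 CPM (195 to 263) and 219 CPM (179 to 266) in NK or ILC1 cells, 96.9 and 67.2 CPM in monocyte-derived cells and 94.1 and 86.9 CPM in conventional dendritic cells. The intervals of the 2 libraries overlapped in NK or ILC1 cells. Among the types, Sulf1 was measured in mesothelial cells alone, at 120 and 464 CPM from 194 and 225 counts. Mesenchymal cells had 8.74 and 6.45 CPM. Within the endothelial states described below, Sulf1 also counted as measured in 1 state, with a log2 ratio of 0.97. The mesothelial gate held 81 and 25 cells, and collagen genes and C3 were among its leading genes, with Upk3b the single mesothelial marker among the first 10. It is therefore described by level only.

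On the chondroitin side, Chsy1, a chondroitin synthase, was highest in NK or ILC1 cells (447 and 522 CPM), then mesenchymal cells (346 and 369 CPM) and T cells (207 and 253 CPM). Csgalnact1, which starts chondroitin chains, stood at 114 and 93.6 CPM in endothelial cells and at 29.2 and 28.9 CPM in mesothelial cells. Chst15, which adds a second sulfate to chondroitin 4-sulfate units, was shared by endothelial cells (437 and 490 CPM) and mesenchymal cells (395 and 583 CPM), and their order differed between the libraries. Chst3, a chondroitin 6-O-sulfotransferase, stood at 164 CPM (138 to 193) and 280 CPM (250 to 312) in B cells, with plasmacytoid dendritic cells next at 32.6 and 28.6 CPM.

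Of the sulfotransferases for other sugars, Chst2, a sulfotransferase for N-acetylglucosamine, stood at 355 and 301 CPM in endothelial cells and at 55.1 and 46.5 CPM in T cells. Chst4, which makes sulfated ligands of L-selectin, had 13 and 30 counts in mesothelial cells and no count in any other type with a level. A count of 0 in endothelial cells allows up to 0.196 and 0.101 CPM, taking 3 counts as the limit. Chst10, the HNK-1 sulfotransferase, was a lymphocyte gene here, at 23.5 and 27.1 CPM in T cells and 17.1 and 24.9 CPM in B cells.

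The question set by the genotypes is what endothelial loss of Ctgf goes with in each cell type. In endothelial cells the 2 libraries differed most in Xylt1, which was 8.79-fold lower under the knockout label. Extl3, Chst1 and Chsy1 were also lower, and Hs3st3b1, Chst7 and Extl2 were higher. Of 21 measured enzyme genes 4 were lower and 3 higher. Among all 9184 measured genes 12.4% were lower and 5.28% higher. The median log2 ratio was -0.06 for the enzyme genes and -0.05 for all genes, so as a group they had no common direction.

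Xylt1 had 1213 counts in 1869 endothelial cells under the control label and 268 counts in 3527 cells under the knockout label, or 79.3 CPM (74.9 to 83.9) and 9.03 CPM (7.98 to 10.2). The log2 ratio was -3.14 (-3.33 to -2.94). A count of Xylt1 was seen in 33.7% (31.5 to 35.8) of control-labelled and 4.08% (3.45 to 4.79) of knockout-labelled endothelial cells, by exact binomial intervals. Fewer cells of the library labelled knockout held any Xylt1 count, although its endothelial cells were slightly deeper, with medians of 7202 against 6742 counts. With each cell thinned to 4000 counts, which left 1773 and 3156 endothelial cells, the shares were 22.6% and 2.22%. Kupffer cells, taken as a type with little Xylt1, had 8.73% and 2.46%, or 2.99% and 0.630% when thinned, at medians of 11802 and 18012 counts. The endothelial shares after thinning thus lay above those of Kupffer cells in both libraries. The Kupffer shares were themselves lower under the knockout label.

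Markers of other types that carry Xylt1 also differed in the endothelial cells. The summed level of the monocyte-derived markers was 190 CPM in the library labelled control and 64.5 CPM in the library labelled knockout, against 11746 and 10907 CPM in monocyte-derived cells themselves. The B cell markers summed to 58.0 and 16.9 CPM. Their part in the Xylt1 result was not tested.

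In the chain elongation group, Extl3, which adds the first N-acetylglucosamine of a heparan sulfate chain, stood at 11.4 and 4.04 CPM in endothelial cells (log2 ratio -1.50, -1.85 to -1.16). Extl2, a relative that acts on the linker region, stood at 12.9 and 20.2 CPM (0.64, 0.41 to 0.88), and at 0.57, under 1.5-fold, with cells thinned to equal depth. The copolymerase genes Ext1 (59.97 and 54.0 CPM) and Ext2 (87.0 and 101 CPM) were within 1.5-fold. The measured genes that start and extend heparan sulfate thus had no common direction.

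None of the 3 measured genes of N-sulfation and epimerization was called. Ndst1, the main N-deacetylase and N-sulfotransferase, stood at 178 and 141 CPM, Ndst2 at 18.2 and 14.9 CPM, and the epimerase gene Glce at 18.9 and 25.4 CPM. Among the O-sulfotransferases Hs3st3b1 was higher, with 3050 and 10445 counts, or 199 CPM (192 to 207) and 352 CPM (345 to 359), a log2 ratio of 0.82 (0.76 to 0.88). A count of it was seen in 66.7% and 79.0% of endothelial cells, or 50.7% and 67.8% when thinned. The other O-sulfotransferases were nearer between libraries, with Hs2st1 at 35.4 and 37.0 CPM and Hs6st1 at 89.9 and 67.9 CPM. The mesenchymal markers, which belong to the type with the highest Hs3st3b1, summed to 210 and 71.0 CPM in endothelial cells. Their part in the Hs3st3b1 result was not tested.

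Among chondroitin genes, Chsy1 stood at 69.1 CPM (65.0 to 73.4) and 40.4 CPM (38.2 to 42.8) in endothelial cells, a log2 ratio of -0.77 (-0.89 to -0.65). Chst7, a chondroitin 6-O-sulfotransferase, stood at 41.7 and 68.8 CPM (0.72, 0.59 to 0.85), and a count was seen in 26.0% and 39.2% of cells, or 14.4% and 23.3% when thinned. Chst1, a sulfotransferase known for keratan sulfate, stood at 13.6 and 4.41 CPM (-1.62, -1.95 to -1.30). Chst15 was within 1.5-fold at 437 and 490 CPM, as were Chst2, Csgalnact1 and the dermatan 4-O-sulfotransferase gene Chst14 (85.5 and 108 CPM). So 1 polymerase gene was lower and 1 sulfotransferase gene higher in a group whose other measured members differed little.

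**Figure D2:**
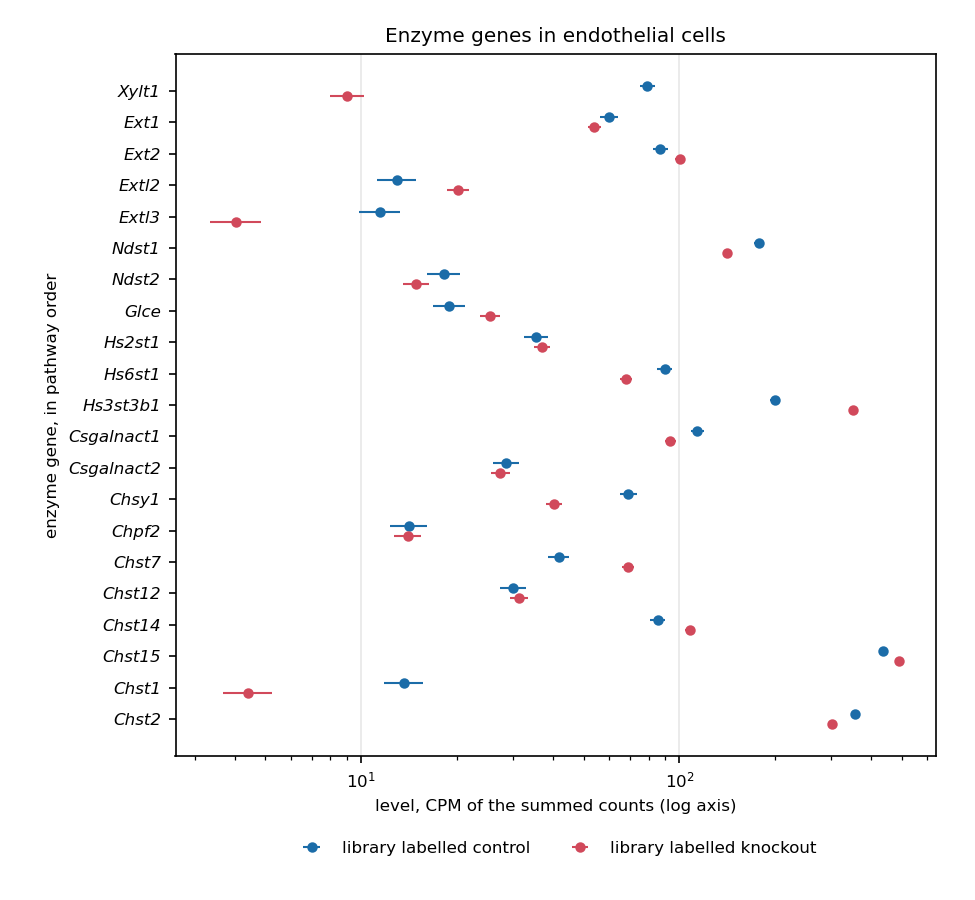
Levels of the measured enzyme genes in endothelial cells, as CPM of summed counts on a log axis with exact Poisson intervals, for the library labelled control and the library labelled knockout. Xylt1 stands apart at 79.3 and 9.03 CPM, and Hs3st3b1 lies higher in the library labelled knockout at 199 and 352 CPM.

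Promoter sequences were read for 35 of the 45 genes, with 42 annotated starts, from RefSeq on mouse build GRCm38.p6, which is not the build of the counts. Each is a window of 300 bases around the start. They are printed for 4 of the called endothelial genes and for both starts of Hs6st2, the mesenchymal gene described below, so that the base composition of these promoters can be seen. The starts of Hs6st2 are numbered by rising coordinate, so on its minus strand the second lies upstream of the first. Capitals mark matches to the GC box GGGCGG or to GGAATG, the core of the site known for TEAD factors, on either strand, and matches could overlap.
Hs3st3b1, chr11:63922235-63922534, minus strand: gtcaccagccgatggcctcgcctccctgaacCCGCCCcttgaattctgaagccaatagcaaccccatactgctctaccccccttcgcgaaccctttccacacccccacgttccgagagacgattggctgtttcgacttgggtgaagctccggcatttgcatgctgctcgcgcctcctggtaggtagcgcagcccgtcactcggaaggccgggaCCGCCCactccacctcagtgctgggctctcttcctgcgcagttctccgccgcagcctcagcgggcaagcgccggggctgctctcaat
Chst7, chrX:20059320-20059619, plus strand: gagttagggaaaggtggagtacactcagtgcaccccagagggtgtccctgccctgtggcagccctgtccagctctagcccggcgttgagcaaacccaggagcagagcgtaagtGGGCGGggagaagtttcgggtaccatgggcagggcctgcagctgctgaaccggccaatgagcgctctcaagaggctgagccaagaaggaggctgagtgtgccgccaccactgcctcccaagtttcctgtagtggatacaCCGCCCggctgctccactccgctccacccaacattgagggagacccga
Chsy1, chr7:66109242-66109541, plus strand: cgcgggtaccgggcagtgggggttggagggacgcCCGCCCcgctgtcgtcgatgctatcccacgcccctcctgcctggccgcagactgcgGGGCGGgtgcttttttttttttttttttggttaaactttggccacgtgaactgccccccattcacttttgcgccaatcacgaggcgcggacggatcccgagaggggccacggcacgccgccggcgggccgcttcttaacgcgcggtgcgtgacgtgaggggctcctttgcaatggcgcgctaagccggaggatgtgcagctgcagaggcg
Chst1, chr2:92600867-92601166, plus strand: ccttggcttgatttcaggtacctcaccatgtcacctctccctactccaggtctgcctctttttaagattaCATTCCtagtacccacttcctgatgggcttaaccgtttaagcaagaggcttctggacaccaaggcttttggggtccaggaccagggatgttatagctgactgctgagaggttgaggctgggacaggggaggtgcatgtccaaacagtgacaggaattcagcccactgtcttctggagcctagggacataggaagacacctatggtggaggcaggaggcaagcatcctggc
Hs6st2, first start, chrX:51680428-51680727, minus strand: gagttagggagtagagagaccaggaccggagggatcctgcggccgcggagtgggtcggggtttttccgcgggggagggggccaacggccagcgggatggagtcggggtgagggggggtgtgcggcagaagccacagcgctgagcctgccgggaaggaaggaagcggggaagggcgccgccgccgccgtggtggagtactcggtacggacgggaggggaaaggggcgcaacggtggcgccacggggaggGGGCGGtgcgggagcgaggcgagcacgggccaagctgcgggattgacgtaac
Hs6st2, second start, chrX:51681553-51681852, minus strand: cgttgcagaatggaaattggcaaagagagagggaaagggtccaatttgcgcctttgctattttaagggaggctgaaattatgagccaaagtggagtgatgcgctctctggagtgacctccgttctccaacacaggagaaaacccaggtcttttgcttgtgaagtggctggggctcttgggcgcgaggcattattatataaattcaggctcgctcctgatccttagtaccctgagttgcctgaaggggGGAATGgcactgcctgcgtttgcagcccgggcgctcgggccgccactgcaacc

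The GC box was found in 64.3% of the 42 enzyme promoters and in 35.7% of all 32851 promoters of that table. GGAATG was found in 19.0% and 14.7%, and CCGGAAGT, a site known for ETS factors, in 4.76% and 3.89%. The enzyme promoters had a median GC content of 65.2%, against 52.7% for all promoters, and a median of 23 CpG dinucleotides against 7. Chst1 was the poorest of those printed in CpG, with 1, and Chsy1 the richest with 34. These matches describe letters in a window and say nothing of binding.

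The endothelial cells were divided into states by further marker lists, and the states had very different sizes in the 2 libraries. Cells scoring for Cyp26b1 and Car8 were 6 and 693 (0.321% and 19.6% of endothelial cells), so that state was not compared. Angiogenic cells, with Esm1 and Angpt2 among their markers, were 25.2% and 7.29%. Within the 5 states compared, Xylt1 was lower under the knockout label in 5 of 5. Its level was 121 and 44.3 CPM in angiogenic cells, 79.7 and 10.1 CPM in general sinusoidal cells and 45.0 and 7.49 CPM in large-vessel cells. It was 34.2 and 2.96 CPM in pericentral cells and 36.1 and 2.11 CPM in periportal cells, the latter a log2 ratio of -4.09. Angiogenic cells had the highest level in both libraries and the smallest ratio, -1.45.

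With the 5 states given equal weight the endothelial ratio of Xylt1 was -2.93. Hs3st3b1 was above the control label in all 5 states and past 1.5-fold in 4, from 120 and 354 CPM in pericentral cells (1.56) to 234 and 316 CPM in periportal cells (0.43). Chst7 was also above it in the 5 states and past 1.5-fold in 3, with 42.8 and 72.2 CPM in general sinusoidal cells. Chsy1 was below it in the 5 states and past 1.5-fold in 4, with 76.7 and 39.3 CPM in pericentral cells. These directions were thus seen within states and not only in their pool.

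Smaller differences also kept 1 sign. Ndst1, Hs6st1 and Csgalnact1 lay below the control label and Ext2, Glce and Extl2 above it in the 5 states. Of these, Ndst1, Hs6st1, Csgalnact1 and Ext2 passed 1.5-fold in no state. Csgalnact1 came as near to equality as -0.12 and Ndst1 as -0.18, while TMM scaling moved the pooled endothelial ratios up by 0.15. The states share the same 2 libraries. Extl3 and Chst1 were lower in the 3 states where each was measured. Chst1 was highest in pericentral cells, at 32.2 and 17.6 CPM, against 13.6 and 2.56 CPM in general sinusoidal cells. Sulf2 differed in sign, with 10.9 and 2.20 CPM in general sinusoidal cells but 2.90 and 14.3 CPM in large-vessel cells, the latter from 4 and 21 counts. Chst15 passed 1.5-fold in pericentral cells alone, at 371 and 558 CPM (0.59).

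Counts of called genes by state were as follows. Angiogenic cells had 2 of 19 lower and 3 higher, with 11.1% and 7.31% of all measured genes. General sinusoidal cells had 5 of 22 lower and 2 higher, with 13.3% and 6.23% of all genes. Large-vessel cells had 4 of 24 lower and 5 higher, with 14% and 11.7% of all genes. Pericentral cells had 6 of 23 lower and 4 higher, with 17.6% and 10.4% of all genes. Periportal cells had 2 of 19 lower and 3 higher, with 12% and 8.84% of all genes.

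**Figure D3:**
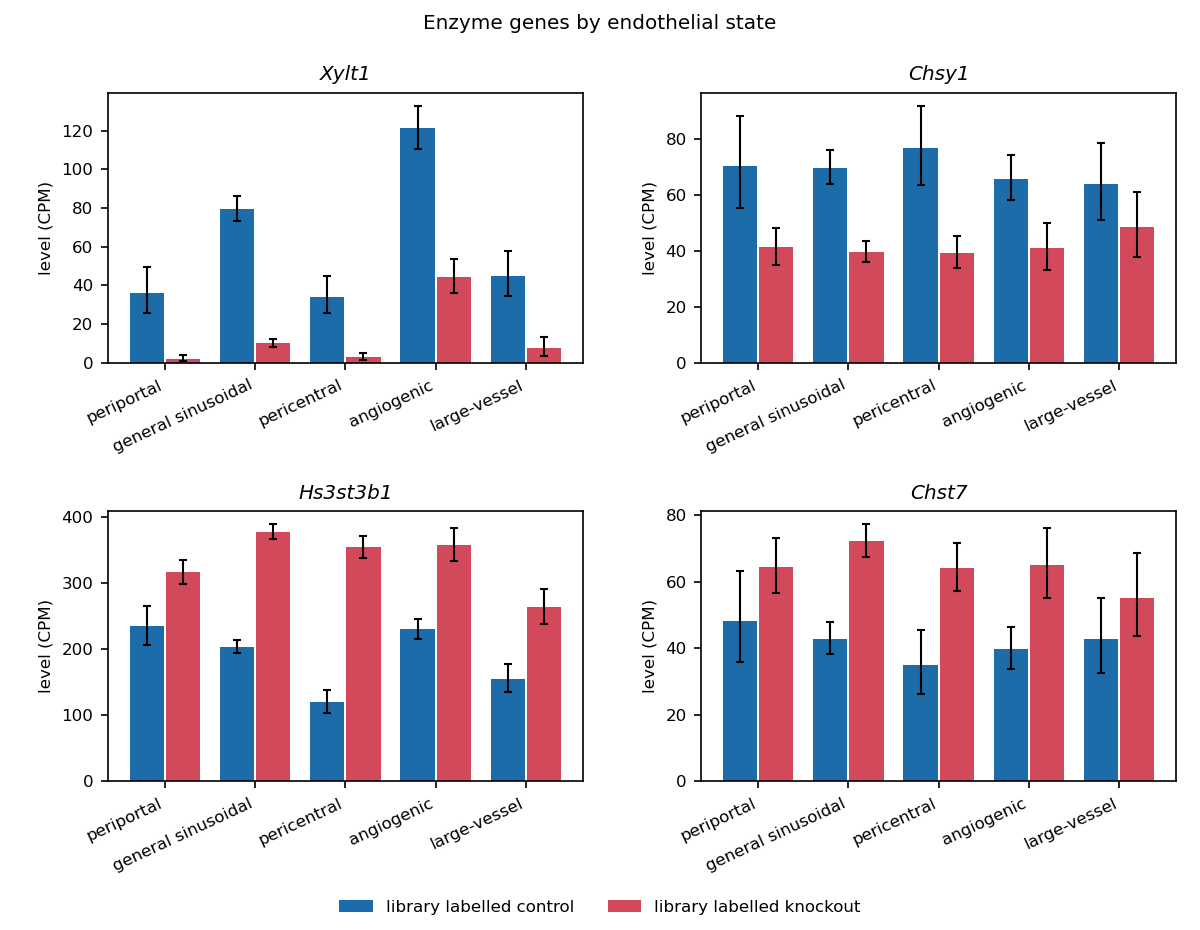
Levels of Xylt1, Chsy1, Hs3st3b1 and Chst7 in 5 endothelial states, as bars of CPM of summed counts on a linear axis from 0 with exact Poisson intervals, for the library labelled control and the library labelled knockout. Xylt1 is lower under the knockout label in each state, from 121 and 44.3 CPM in angiogenic cells to 36.1 and 2.11 CPM in periportal cells.

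In mesenchymal cells all 3 genes of the 6-O-sulfotransferases were past 1.5-fold. Hs6st2 was 9.91-fold lower and Hs6st1 was lower under the knockout label, while Hs6st3 was higher. Chst8, Chsy3 and Chst11 were also lower and Hs3st3a1 higher. Of 24 measured enzyme genes 5 were lower and 2 higher, against 11.2% and 8.95% of all 9362 measured genes. Their median log2 ratio was 0.02, against 0.00 for all genes. The gate held 568 and 526 cells, with medians of 9655 and 8377.5 counts.

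Hs6st2 had 341 and 27 counts in mesenchymal cells, or 52.3 CPM (46.9 to 58.2) and 5.28 CPM (3.48 to 7.68), a log2 ratio of -3.31 (-3.93 to -2.74). A count was seen in 18.8% and 1.52% of mesenchymal cells, or 9.42% and 0.860% of the 552 and 465 cells that could be thinned. In Kupffer cells, used as background, the shares were 0.425% and 0.223%, or 0.0623% and 0.0572% when thinned. The mesenchymal shares stood above that background in both libraries, and by less under the knockout label. There the thinned mesenchymal share came from 4 cells, and its interval (0.235% to 2.19%) overlapped that of Kupffer cells (0.00145% to 0.319%). Hs6st1 stood at 83.7 and 38.5 CPM (-1.12, -1.36 to -0.88). Hs6st3 had 24 and 80 counts, or 3.68 and 15.6 CPM (2.09, 1.41 to 2.81). The 3 genes of this enzyme family thus did not share a direction.

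The 3-O-sulfotransferases were both above the control label in mesenchymal cells. Hs3st3a1 stood at 60.6 and 115 CPM (0.93, 0.74 to 1.12) and was called higher. Hs3st3b1 stood at 806 and 1109 CPM (0.46) and was within 1.5-fold, and the reads of the pair cannot be divided with certainty. Of the chondroitin genes, Chsy3, a chondroitin synthase, stood at 19.8 and 12.1 CPM (-0.71, -1.17 to -0.26). Chst11, a chondroitin 4-O-sulfotransferase, stood at 10.7 and 6.65 CPM (-0.69, -1.33 to -0.08), and at 0.03 when types were taken from clusters. Chst15 was just within 1.5-fold at 395 and 583 CPM (0.56, 0.49 to 0.64), and Chsy1 stood at 346 and 369 CPM.

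Chst8, a sulfotransferase for N-acetylgalactosamine on hormone glycans, had 89 and 3 counts, or 13.6 and 0.586 CPM (-4.54, -6.85 to -2.95). A count of it was seen in 11.4% and 0.570% of mesenchymal cells, or 3.62% and 0.215% when thinned, and in 0.667% and 1.28% of Kupffer cells. The knockout-labelled share was at the background level. The polymerase genes Ext1 (131 and 134 CPM) and Ext2 (95.5 and 95.01 CPM) were nearly equal in the 2 libraries.

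**Figure D4:**
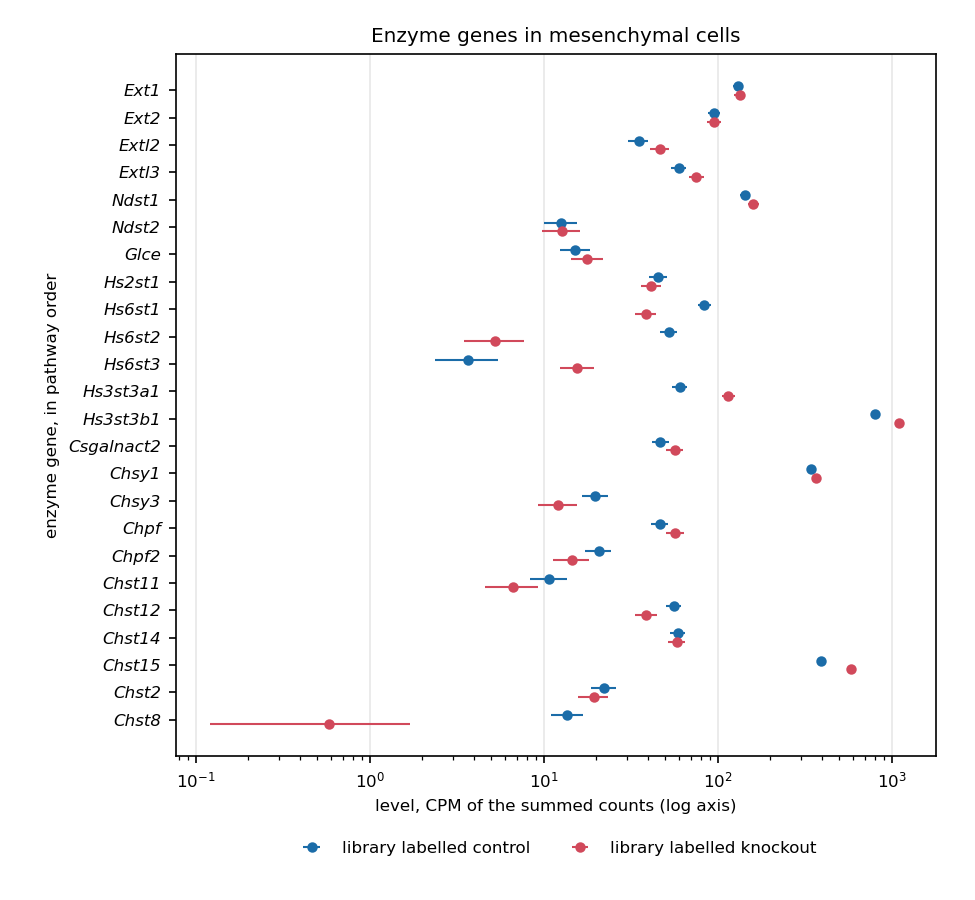
Levels of the measured enzyme genes in mesenchymal cells, as CPM of summed counts on a log axis with exact Poisson intervals, for the library labelled control and the library labelled knockout. Hs6st2 (52.3 and 5.28 CPM) and Chst8 (13.6 and 0.586 CPM) lie lower and Hs6st3 (3.68 and 15.6 CPM) higher under the knockout label.

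The makeup of the mesenchymal gate differed too. Cells scoring for contractile genes such as Acta2, Myh11 and Tagln were 268 and 79, and the remaining low-contractile cells were 300 and 447, with 71 and 66 cells near the limit of that score. Hs6st2 was a gene of the contractile cells, at 81.7 and 27.7 CPM there (-1.56), against 11.4 and 0.239 CPM from 31 counts and 1 count in low-contractile cells. The ratio within contractile cells was thus smaller than in the pooled gate. Chst8 had 66 and 2 counts in contractile cells, or 17.4 and 2.13 CPM.

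Hs6st1 was lower in both groups, at 87.2 and 33.0 CPM in contractile cells (-1.40) and 78.9 and 39.7 CPM in low-contractile cells (-0.99). Hs3st3a1 was higher in both, at 50.1 and 82.0 CPM and at 75.2 and 122.8 CPM. Hs3st3b1 differed in sign, with 673 and 546 CPM in contractile cells (-0.30) and 990 and 1235 CPM in low-contractile cells (0.32). The pooled ratio of 0.46 lay above both, and low-contractile cells were 447 of the 526 mesenchymal cells under the knockout label. Of the measured genes 5 of 26 were lower and 2 higher in contractile cells, with 16.2% and 13.3% of all genes. In low-contractile cells 3 of 22 were lower and 2 higher, with 11.1% and 7.03% of all genes.

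**Figure D5:**
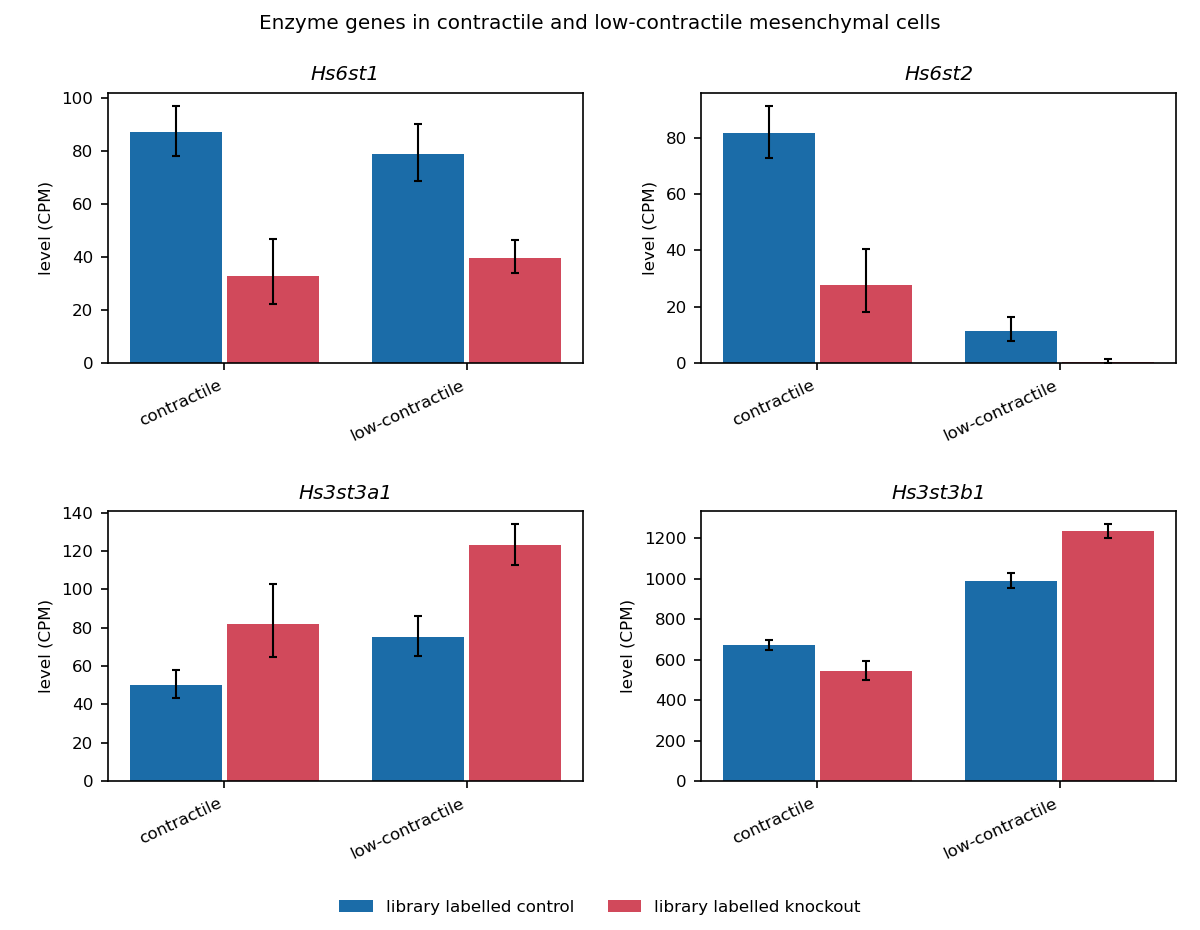
Levels of Hs6st1, Hs6st2, Hs3st3a1 and Hs3st3b1 in contractile and low-contractile mesenchymal cells, as bars of CPM of summed counts on a linear axis from 0 with exact Poisson intervals, for the library labelled control and the library labelled knockout. Hs6st1 lies lower under the knockout label in both groups, and Hs3st3b1 is 673 and 546 CPM in contractile but 990 and 1235 CPM in low-contractile cells.

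Kupffer cells, the resident macrophages of the sinusoid, had 1 enzyme gene lower and 1 higher of 18 measured, against 6.42% and 5.58% of all 9002 genes. Sulf2 had 534 and 250 counts in 1649 and 1791 cells, or 23.6 and 7.32 CPM (-1.69, -1.91 to -1.47). A count was seen in 19.7% and 9.55% of cells, or 9.22% and 3.21% when thinned, while mesenchymal cells had 5.46% and 3.80%, or 1.81% and 2.37% when thinned. Thinned to equal depth, the Kupffer share was above the mesenchymal one under the control label and closer to it under the knockout label. Markers of monocyte-derived cells, which carry more Sulf2, summed to 934 and 665 CPM in Kupffer cells, and those of scar-type macrophages to 674 and 107 CPM. Their part in the result was not tested.

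Hs3st3b1 stood at 47.1 and 76.1 CPM in Kupffer cells (0.69, 0.59 to 0.80). With a stricter gate the ratio was 0.32 and with clusters 0.40, both under 1.5-fold. Endothelial markers in the same cells summed to 1028 and 1716 CPM and mesenchymal markers to 272 and 451 CPM. Both belong to types with more Hs3st3b1, and the part of either was not tested. The other enzyme genes of highest CPM in Kupffer cells were within 1.5-fold, with Ndst1 at 169 and 158 CPM and Hs6st1 at 142 and 177 CPM.

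Monocyte-derived cells had 5 of 16 enzyme genes lower and 0 higher by the rule of size, against 15.2% and 20.4% of all 9032 measured genes. The median log2 ratio was -0.45, against 0.09 for all genes. Ndst1 stood at 87.7 and 36.0 CPM (-1.29, -1.60 to -0.98) and Extl3 at 37.0 and 22.4 CPM (-0.72). Both stayed past 1.5-fold under the alternatives run. Ndst2 (43.0 and 27.5 CPM) and Chsy1 (129 and 85.2 CPM) were nearer the limit, with ratios from -0.71 to -0.32 and from -0.74 to -0.51. Hs3st3b1 stood at 14.97 and 9.47 CPM (-0.66), and the mean of single-cell CPM gave 0.06. Csgalnact2 went the other way within 1.5-fold, at 122 and 176 CPM. The gate held 749 and 227 cells with medians of 5623 and 11314 counts, and the Kupffer markers in it summed to 1108 and 406 CPM. Its own markers cover both classical (Ly6c2, Ccr2) and patrolling (Ace, Treml4) monocytes, and the gate was not split by them. The part of the Kupffer markers or of the gate's makeup in these results was not tested.

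Lymphocytes had some called genes in common with endothelial cells, such as Xylt1 and Chst7 in B cells, both with the other sign. In T cells 1 of 20 enzyme genes was lower and 6 higher, against 11.9% and 12.2% of all genes, and for 3 of the higher ones the interval left out equality, as it did for 8.56% of all genes. They were Ext1 (22.8 and 43.7 CPM, 0.94), Ext2 (24.3 and 39.3 CPM, 0.70) and Chst15 (21.3 and 43.2 CPM, 1.02). The genes of highest CPM in T cells were within 1.5-fold, with Chsy1 at 207 and 253 CPM, Hs3st3b1 at 79.4 and 82.5 CPM and Sulf2 at 58.8 and 47.6 CPM. Ext2 fell under 1.5-fold with a stricter gate or with thinned cells, where it was 0.41. In B cells 2 of 18 were lower and 4 higher, against 12.8% and 14.9% of all genes. Chst3 stood at 164 and 280 CPM (0.77, 0.48 to 1.07), Xylt1 at 81.9 and 126 CPM (0.62, 0.20 to 1.05) and Csgalnact2 at 17.1 and 36.4 CPM (1.09). Chst7 had 23 and 8 counts in B cells, or 26.2 and 7.10 CPM (-1.88, -3.25 to -0.67). Ndst1 (117 and 102 CPM) and Chsy1 (108 and 140 CPM), both of high CPM in B cells, were within 1.5-fold.

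In NK or ILC1 cells 1 of 13 was lower and 1 higher, against 13.5% and 17% of all genes. The higher gene was Hs3st3b1, with 29 and 54 counts, or 37.4 and 113 CPM (1.59, 0.91 to 2.30), while endothelial markers in these cells summed to 409 and 696 CPM. Its part was not tested. Chsy1 and Sulf2, the genes of highest CPM, had overlapping intervals. Conventional dendritic cells had 1 of 18 lower and 0 higher, against 10.3% and 10.7% of all genes, and their genes of highest CPM were Ext1 (69.9 and 84.8 CPM), Sulf2 (94.1 and 86.9 CPM) and Chsy1 (74.3 and 86.9 CPM).

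Hepatocytes numbered 261 and 85, and 54.9% of all measured genes were lower there and 10.5% higher, with a median of -0.67. Their summed counts were 2323941 and 3455893, although the medians per cell were 5705 and 6462. Cells far deeper than the median thus made up most of the knockout-labelled sum, which the counting intervals do not cover. Of 10 enzyme genes 0 were lower and 4 higher by the rule of size, with a median of 0.41. They were Ext2 (6.88 and 12.7 CPM), Extl2 (3.87 and 11.3 CPM), Glce (5.59 and 16.2 CPM) and Sulf2 (5.59 and 17.7 CPM). Scaling by trimmed means (TMM) moved all hepatocyte ratios up by 0.67, which raised these 4 further. Sizes in this remnant, and the directions of genes below the control label, thus depend on the scaling. Sulf2 was -1.17 with thinned cells. Of the genes of highest CPM, Hs6st1 stood at 98.5 and 115 CPM (0.22), Ndst1 at 54.2 and 74.1 CPM (0.45) and Hs3st3b1 at 99.4 and 81.9 CPM (-0.28). With TMM the ratio of Hs3st3b1 was 0.39, of the other sign.

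The rest of the pathway was read from 74 further genes, whose counts are set beside the share of all measured genes called in the same cells. For endothelial cells that share was 12.4% lower and 5.28% higher. In endothelial cells none of 4 measured linker enzyme genes and 0 of 2 hyaluronan genes was called by size, and of 2 measured dermatan genes Dse, the epimerase, stood at 300 and 413 CPM within 1.5-fold. Of 15 genes of precursor supply 1 was lower and 1 higher, namely the Golgi sulfate-donor transporters Slc35b2 (18.8 and 12.3 CPM) and Slc35b3 (40.7 and 63.4 CPM). Of 6 heparan sulfate core proteins Gpc4 was lower (26.4 and 16.7 CPM), while the abundant perlecan gene Hspg2 (412 and 371 CPM) and Tgfbr3 (403 and 435 CPM) were not called.

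Of 6 core proteins of chondroitin and dermatan sulfate in endothelial cells 3 were lower and 1 higher, beside 12.4% and 5.28% of all genes. Dcn, decorin, stood at 116 and 39.6 CPM (-1.55) and Cd44, the hyaluronan receptor, at 47.0 and 17.2 CPM (-1.45). Srgn, serglycin, stood at 251 and 504 CPM (1.01). Esm1, the third lower gene, was itself a marker of the angiogenic state and stood at 372 and 191 CPM. Dcn is a mesenchymal gene. The mesenchymal markers in endothelial cells summed to 210 and 71.0 CPM, and their part in the Dcn value was not tested. Of 14 lysosomal genes 1 was higher, Hpse, the heparanase that cleaves heparan sulfate, at 28.2 and 84.8 CPM (1.59).

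In mesenchymal cells none of the 4 linker, 3 dermatan or 2 hyaluronan genes measured was called by size. Of 12 heparan sulfate core proteins 3 were lower and 1 higher, beside 11.2% and 8.95% of all genes. Gpc3, a glypican, stood at 292 and 59.2 CPM (-2.30), Sdc2, a syndecan, at 462 and 235 CPM (-0.97) and Hspg2 at 241 and 122.97 CPM (-0.97). Tgfbr3, betaglycan, stood at 251 and 555 CPM (1.15). Of 14 precursor genes Uxs1 (17.8 and 9.77 CPM) and Ugdh (57.8 and 37.3 CPM), which make UDP-xylose and its precursor, were lower, and the transporter Slc35d1 (48.5 and 80.0 CPM) was higher.

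Of 7 chondroitin core proteins in mesenchymal cells 3 were lower, beside 11.2% of all genes, namely Vcan, Cd44 and Thbd. Vcan (28.8 and 7.04 CPM) was a marker of the monocyte-derived gate and Thbd (61.0 and 40.5 CPM) of the pericentral state, and Cd44 stood at 83.6 and 49.1 CPM. In Kupffer cells, where 6.42% of all genes were lower and 5.58% higher, 0 of 3 linker, 0 of 2 hyaluronan and 0 of 14 lysosomal genes were called by size. Papss2, a synthase of the sulfate donor, was higher (15.8 and 27.2 CPM, 1 of 14 precursor genes), as was Ust, a uronyl 2-O-sulfotransferase (29.6 and 48.9 CPM, 1 of 2).

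Core proteins in Kupffer cells included Sdc4, a syndecan, lower at 45.3 and 27.6 CPM, and Gpc4, higher at 7.87 and 17.3 CPM, of 6 for heparan sulfate. Bgn (138 and 220 CPM) and Dcn (228 and 489 CPM) were the 2 of 6 higher for chondroitin and dermatan sulfate. Both encode small leucine-rich proteoglycans. The mesenchymal markers in Kupffer cells summed to 272 and 451 CPM, and their part in the Bgn and Dcn values was not tested.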

How the data were processed

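The authors deposited, for each of the 2 samples, a matrix of raw counts per gene and cell barcode with its gene and barcode lists. Each matrix lists exactly 10000 barcodes. The libraries were made with the BD Rhapsody whole transcriptome kit, per the labels' protocols, and the submitters' processing notes name GRCm39 as the build. How reads were aligned, assigned to genes and strands and collapsed by molecular identifier is not given in the sources used here, so a count may not be 1 molecule. No column of the deposited files was left unused.

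Samples were grouped by the genotype label. A cell needed 300 genes, 500 counts and a mitochondrial share of 25% or less. The automatic threshold of the doublet caller Scrublet marked 1 cell per library and had not worked, so the top 5% of its scores were removed. A cell was given a type when its marker score was at least 0.25, at least 3 markers were seen and every other lineage reached at most 0.6 of it. These thresholds were set after seeing the data, and the enzyme genes and pathway lists were chosen with earlier results of these data known. Counts were summed per type and library and expressed as CPM. Each type's text names every measured enzyme gene at least 1.5-fold apart whose interval leaves out equality, and the 3 of highest CPM. Of each other pathway list, the highest and lowest ratios past 1.5-fold are named, with a few abundant genes chosen after their values were seen. No test was possible with 1 library per label. The interval calculations were tested on simulated data. Alternatives changed the cell filter, gate, doublets, clustering, depth, averaging, scaling and size limits.

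Python 3.11.15, NumPy 2.4.6, SciPy 1.17.1 and Scanpy 1.11.5 were used, with R 4.3.3 and edgeR 4.0.16 for TMM factors. The lysosomal list in mesenchymal cells is not reported here. Promoters came from RefSeq on GRCm38.p6.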

Additional observations from a re-analysis of the deposited data

Results flagged for a closer look

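Some enzyme genes differed in opposite directions, or by different amounts, in different cell types. None of these differences between types was tested, since each rests on 1 library per label. Xylt1 had a log2 ratio of -3.14 in endothelial cells and 0.62 in B cells. The monocyte-derived ratio of Xylt1 was -0.49. In Kupffer and mesenchymal cells Xylt1 was too low to count as measured, but its thinned shares were also lower under the knockout label. They were 2.99% and 0.630% in Kupffer cells and 3.26% and 0.645% in mesenchymal cells. Hs3st3b1 had 0.82 in endothelial cells, 0.69 in Kupffer cells and 1.59 in NK or ILC1 cells, but -0.66 in monocyte-derived cells. The last was 0.06 with the mean of per-cell CPM, and the Kupffer value was 0.32 with the stricter gate, under 1.5-fold. Sulf2 had -1.69 in Kupffer cells and 1.66 in hepatocytes, where its direction turned with thinned cells. Chst7 had 0.72 in endothelial cells and -1.88 in B cells, the latter from 23 and 8 counts.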

How the results depend on the processing

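No paired analysis was possible because there is 1 library per label and the labels give no replicate numbers. For the 55 named ratios, 559 values were recomputed under other settings. Of these 492 stayed within the counting interval of the ratio, 64 moved outside it and 3 values of ratios past 1.5-fold changed sign. Those were Chst11 in mesenchymal cells with Leiden clusters (0.0297), Hs3st3b1 in monocyte-derived cells with the mean of per-cell CPM (0.0647) and Sulf2 in hepatocytes with thinned cells (-1.17), and the cause was not tested. Of 22 named ratios within 1.5-fold, 6 had the other sign in at least 1 setting, namely Hs3st3b1 in hepatocytes (up to 0.39) and T cells, Sulf2 in conventional dendritic (up to 0.56) and NK or ILC1 cells, Chsy1 in mesenchymal cells and Ndst1 in B cells. The 4 lower endothelial genes became 2 at a minimum of 50 CPM and 11 with no minimum, and the 3 higher became 0 at 2-fold. The endothelial median of -0.06 became 0.0903 with TMM, 0.0864 with median-of-ratios scaling, -0.19 at 50 CPM and -0.28 with no minimum. Either scaling moves all endothelial ratios by 0.15. Xylt1 in endothelial cells, -3.14, became -3.34 with the stricter gate, -3.39 with Leiden clusters, -3.43 with thinned cells and -2.93 with equal weight per state. The median ranged from -0.01 to 0.12 in mesenchymal and from -0.10 to 0.03 in Kupffer cells. Hs6st2 in mesenchymal cells ranged from -5.75 to -3.25. Genes under 20 counts were not called, and depth limits every ratio in B, NK or ILC1 and hepatocyte gates.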

Other observations

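In monocyte-derived cells, most listed genes that build or modify the linker between core protein and chain were higher under the knockout label. No measured enzyme gene of the rule was called higher there, and Xylt1, which adds the first sugar, was at -0.49. Of 5 measured linker genes 4 were at least 1.5-fold higher, against 20.4% of all measured genes. Pxylp1, the phosphatase of the linker xylose, stood at 8.77 and 52.4 CPM (log2 ratio 2.58), B3galt6, a linker galactosyltransferase, at 3.85 and 11.99 CPM, and B4galt7, another, at 15.6 and 29.98 CPM. Of 14 genes of precursor supply 5 were higher and 2 lower, with Uap1, which makes UDP-N-acetylglucosamine, at 28.5 and 59.96 CPM. Of 5 heparan sulfate core proteins 3 were lower and 1 higher, against 15.2% and 20.4% of all measured genes. Sdc4 stood at 37.6 and 6.31 CPM and Gpc6 had 51 and 3 counts (-3.53, -5.85 to -1.90), whereas Gpc1 stood at 5.35 and 32.8 CPM (2.62). These values come from 749 and 227 cells whose median depths differed, at 5623 and 11314 counts. The part of depth or of the gate's makeup was not tested.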
